A study of Homo sapiens with 6 samples.

Results

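The peaks described here are broad peaks of the UHRF1 tandem Tudor domain (TTD) that lay over exons in the interior of genes. A peak was counted as an exon peak when it overlapped, by at least 1 bp, an exon of any transcript of a protein-coding gene in GENCODE release 44, when its edges lay more than 2500 bp from the transcription start site (TSS) of every protein-coding gene, and when it contained no 3′ end of such a gene. The TSS was the 5′ end of the gene record, and 20033 protein-coding genes gave 1 such site each. Of 31569 TTD peaks in the list, 3178 (10.1%) were exon peaks. As the most similar set, 11031 peaks (34.9%) lay wholly in the introns of protein-coding genes under the same limits for the TSS and the 3′ end, and these are called intronic peaks. The 14209 exon and intronic peaks are together called gene-body peaks.

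The list came from untreated HepG2 cells, an established human hepatoblastoma cell line. In chromatin interacting domain precipitation (CIDOP), a GST-tagged reading domain, here the TTD of human UHRF1, replaces the antibody of a ChIP experiment and pulls down native mononucleosomes. There were 2 biological replicates of the TTD pulldown, of an H3K9me2 ChIP and of the input, and the 2 TTD replicates were averaged before the peaks were called. The list therefore holds no replicate values, no score and no depth, the 95% Wilson intervals given here with shares cover counting error only, and overlap is described without a test.

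UHRF1 is a multidomain protein that helps to copy DNA methylation after replication, and its TTD reads histone H3 methylated on lysine 9, with a preference for tails that also carry monomethylated lysine 4. H3K9me2 is a mark of broad repressed domains that often include gene bodies, whereas H3K4me1 marks enhancers and the flanks of promoters, many of which lie in introns. Exons are short, comparatively rich in G and C and separated by long introns, so that a broad peak within a gene covers intronic sequence for most of its length and meets an exon in passing or in clusters.

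To show what kind of sequence lay under these peaks, 5 coding exons wholly inside a peak are printed with 20 bases of the adjoining introns, 5′ to 3′ on the strand of the gene, with the exon in capitals and the intron in lower case. They come from genes with many exons in peaks (COL5A2, ITGA10, NEB and FRY) and from a plasma protein gene of liver (CP).
COL5A2 exon 44: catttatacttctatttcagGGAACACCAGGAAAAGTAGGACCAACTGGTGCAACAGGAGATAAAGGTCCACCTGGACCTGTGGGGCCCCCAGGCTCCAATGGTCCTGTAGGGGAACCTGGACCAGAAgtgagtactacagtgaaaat
ITGA10 exon 26: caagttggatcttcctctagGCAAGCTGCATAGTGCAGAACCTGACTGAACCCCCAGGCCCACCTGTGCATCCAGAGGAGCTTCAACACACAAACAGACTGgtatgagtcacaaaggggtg
NEB exon 67: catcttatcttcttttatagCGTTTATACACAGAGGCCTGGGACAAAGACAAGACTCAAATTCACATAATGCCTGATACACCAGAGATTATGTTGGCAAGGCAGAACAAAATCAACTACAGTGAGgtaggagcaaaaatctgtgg
FRY exon 54: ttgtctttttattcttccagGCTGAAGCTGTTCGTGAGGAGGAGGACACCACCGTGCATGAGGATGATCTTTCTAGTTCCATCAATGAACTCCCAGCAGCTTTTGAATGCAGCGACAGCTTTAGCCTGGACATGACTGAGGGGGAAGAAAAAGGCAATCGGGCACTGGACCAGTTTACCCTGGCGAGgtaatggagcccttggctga
CP exon 6: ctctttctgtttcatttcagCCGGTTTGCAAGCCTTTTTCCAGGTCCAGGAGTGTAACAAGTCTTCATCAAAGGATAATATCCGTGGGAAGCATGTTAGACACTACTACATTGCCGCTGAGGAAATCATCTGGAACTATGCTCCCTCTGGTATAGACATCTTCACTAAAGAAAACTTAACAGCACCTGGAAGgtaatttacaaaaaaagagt
On hg38, the COL5A2 stretch lies at chr2:189049327-189049474 on the minus strand, that of ITGA10 at chr1:145895611-145895731 (minus), that of NEB at chr2:151630695-151630839 (minus) and that of FRY at chr13:32265430-32265636 (plus). The CP stretch lies at chr3:149206148-149206359 (minus). The ITGA10 exon was centred 4.5 bp from the middle of a peak of 8870 bp, and the NEB exon 58.5 bp from the middle of a peak of 1870 bp. GC content ranged over these exons from 41.9% in NEB to 57.4% in COL5A2, and the exons of COL5A2 and ITGA10 contained no CpG, against 5 in the FRY exon. Across all 38 such exons of the named genes, GC content ranged from 37.1% to 69.6%, and each exon was preceded by ag and followed by gt, the usual letters at the ends of an intron.

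Exon peaks were broad. Their median width was 2675 bp, with quartiles at 1670 and 4430 bp and a range from 200 to 35150 bp, and together they covered 11244940 bp. Intronic peaks had a median of 2100 bp and quartiles at 1295 and 3320 bp, so that exon peaks were the wider set when an overlap of 1 bp counted. This order was lost when the midpoint of the peak had to lie in an exon, where the median was 1910 bp. Widths of 5 kb or more were reached by 628 exon peaks, 19.8% (18.4 to 21.2), and by 10.3% (9.75 to 10.9) of the intronic peaks. For widths of 10 kb or more the shares were 3.90% (3.28 to 4.63) and 1.13% (0.952 to 1.35). A wider peak meets an exon more often by its length alone. Of the gene-body peaks narrower than 1 kb, 12.6% (11.2 to 14.2) overlapped an exon, and of those of 10 kb or more 49.8% (43.6 to 56.0), and the share was higher in each wider class. The part of this geometry in the difference of the widths was not tested.

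**Figure D1:**
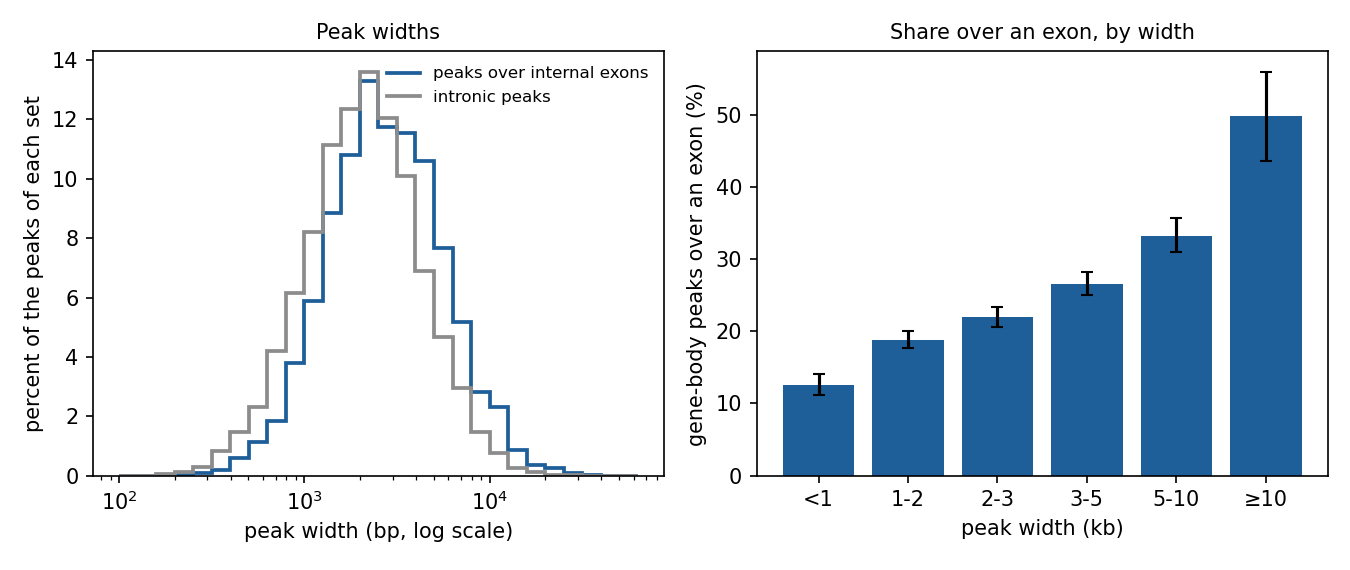
Left, widths of exon peaks (blue) and intronic peaks (grey) on a logarithmic axis in bp, as percent of the peaks of each set. Right, percent of gene-body peaks that overlapped an exon in each width class in kb, with 95% Wilson intervals, from 12.6% under 1 kb to 49.8% at 10 kb or more.

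Intron made up most of the length of a typical exon peak. The median exon peak held 234 exonic bases, with quartiles at 121 and 572.5, and the median exonic share of a peak was 8.91% of its length. Fewer than 50 exonic bases were touched by 139 peaks (4.37%). At the other end, 468 peaks (14.7%) held at least 1000 exonic bases, 438 (13.8%) were exonic over more than 50% of their length, and 224 (7.05%) lay wholly in exon. Exons were mostly enclosed rather than clipped, which the lengths alone favour. The median length was 123 bp for internal exons of canonical transcripts and the median width 2675 bp for exon peaks. The part of this geometry was not tested. Of 2829 internal exons of canonical transcripts that exon peaks met, 2509 (88.7%, 87.5 to 89.8) lay wholly inside a peak, and of the 6356 edges of exon peaks 1427 (22.5%, 21.4 to 23.5) fell in an exon. A canonical transcript is the 1 transcript per gene that the annotation marks as representative. No whole canonical exon was contained in 1470 exon peaks (46.3%), 1 in 1188 (37.4%), 2 in 331 (10.4%) and 3 in 117 (3.68%), and the highest number was 14.

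The peaks met several kinds of exon. At least 1 coding base was contained in 2203 exon peaks, 69.3% (67.7 to 70.9). An exon of the canonical transcript was overlapped by 2210 peaks, 69.5% (67.9 to 71.1), and 1871 of the 3178 peaks (58.9%) overlapped an internal exon of that transcript. The last canonical exon was met by 341 peaks, which lay in the long 3′ parts of genes but ended before the end of the gene record, and the canonical first exon by 66, in genes whose canonical transcript starts inside the gene record. First exons of other transcripts were met by 572 peaks, their internal exons by 541 and their last exons by 299. In the strict sense of the name, an internal exon of a representative transcript, the rule thus held for 58.9% of the peaks.

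The remaining 968 peaks (30.5%) overlapped exons of other transcripts alone. Of these, 442 met a transcript without a defined coding sequence, 441 a protein-coding transcript, 147 a transcript subject to nonsense-mediated decay and 130 a retained-intron transcript, where a peak could meet more than 1 kind, and 82 (8.47%) met retained-intron transcripts alone. Starts of transcripts other than the one that begins at the 5′ end of the gene also lay in these peaks. At least 1 such start was contained in 1029 of the 3178 exon peaks, 32.4% (30.8 to 34.0), in 27.0% (25.2 to 28.9) of those over a canonical exon and in 44.7% (41.6 to 47.9) of the others. These shares are partly built in by the rule. A peak that contains such a start overlaps a first exon, so that no intronic peak can contain one. A start of a lncRNA gene lay in 65 exon peaks (2.05%, 1.61 to 2.60) and in 129 intronic peaks (1.17%, 0.985 to 1.39). Distance from the gene's own TSS is thus not distance from every annotated start.

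Exon peaks lay nearer to a TSS than intronic peaks did, with a median distance from the peak edge of 34804 bp against 53601 bp. More than 50 kb from the nearest protein-coding TSS lay 37.6% (35.9 to 39.3) of the exon peaks and 52.3% (51.3 to 53.2) of the intronic peaks. Exonic sequence itself lay nearer to a TSS. Of the exonic bases more than 2500 bp from a TSS, 12294183 of 93352173 lay beyond 100 kb. For intronic bases these were 423213454 of 1157839299. A split of peaks by exon overlap thus favours this order, and its part was not tested. At the limit of the rule, 54 exon peaks lay more than 2500 and up to 3000 bp from a TSS, with a median width of 2485 bp. Just outside it, 55 peaks that met the rest of the rule lay from 2000 to 2500 bp away, with a median width of 2600 bp. Peaks often had close neighbours. The median gap from an exon peak to the next TTD peak was 9120 bp, and 51.9% (50.2 to 53.7) lay within 10 kb of another peak, against 50.0% (49.02 to 50.88) of the intronic peaks.

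Because every exon peak touches an exon by definition, the peaks alone cannot show whether exons are favoured. For this, the percent of all exonic and of all intronic bases that lay in TTD peaks was compared, over every protein-coding gene and more than 2500 bp from each protein-coding TSS. Exonic bases were covered to 2.53% and intronic bases to 3.56%, a ratio of 0.711. Cover was lower still for coding sequence, at 1.99% or 0.560 of the intronic value, and it was 2.34% (0.658) for the exons of canonical transcripts. Exons in the interior of genes were therefore covered less than introns. The 15596 genes with at least 1 kb of each kind gave the same order, with a mean cover per gene of 2.56% for exons and 3.49% for introns. When the introns of each gene were weighted by its exonic bases, so that exon-rich genes counted alike on both sides, the ratio was 0.712.

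The order held at each distance from the TSS. Between 2.5 and 5 kb, 3.02% of exonic and 5.22% of intronic bases lay in peaks, a ratio of 0.578, and the lowest ratio of 0.502 was found between 5 and 10 kb. From 10 to 100 kb the ratio stayed between 0.643 and 0.670. Beyond 100 kb exonic cover was 2.49% and intronic cover 2.80%, a ratio of 0.889. Intronic cover was highest next to the TSS and lowest beyond 100 kb, whereas exonic cover stayed between 2.17% and 3.02%, so that the gap was smallest far from the TSS.

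**Figure D2:**
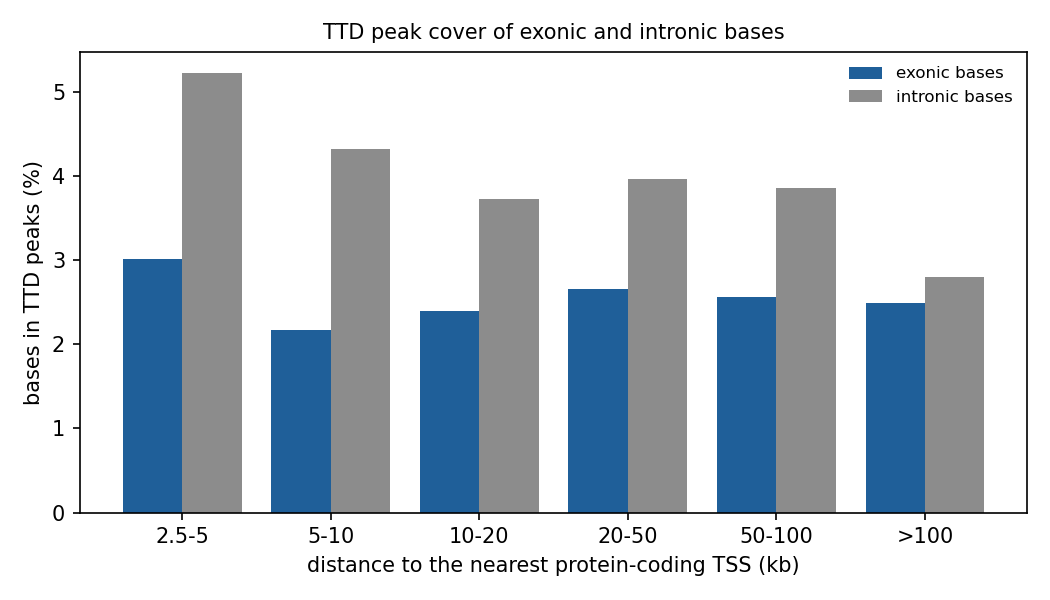
Percent of exonic (blue) and intronic (grey) bases of protein-coding genes that lay in TTD peaks, by distance in kb to the nearest protein-coding TSS. The blue bar is the lower of each pair, with 2.17% against 4.32% between 5 and 10 kb and 2.49% against 2.80% beyond 100 kb.

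Exon classes differed in their cover. Of 154011 internal exons of canonical transcripts, 2.08% (2.01 to 2.15) overlapped a TTD peak, and 1.90% of their bases were covered. Internal exons that belong to other transcripts alone were overlapped in 3.77% (3.52 to 4.04) of 20448 cases, with 3.45% of their bases covered, close to the 3.56% of introns. First exons of such transcripts had the highest value, with 4.91% (4.60 to 5.23) of 18284 exons overlapped and 4.64% of bases covered. The median exon length was 123 bp for the canonical internal exons, 109 bp for the internal exons of other transcripts and 137 bp for their first exons, so that exon length differed little between these classes. Along the canonical transcript, exon 2 was overlapped most often (3.88%, 3.54 to 4.26), exons 6 to 10 in 1.93% (1.801 to 2.06) and exons 11 to 20 in 1.60% (1.48 to 1.73) of cases, while exons from 21 on reached 1.93% (1.77 to 2.12). The median distance to the nearest TSS was 11599 bp for exon 2 and 59655 bp for the exons from 21 on.

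Around canonical internal exons the cover formed a shallow step and no local maximum. It was 2.81% in the 100 bp bin that begins 5 kb upstream of the exon centre, fell to 1.96% within 100 bp of the centre, and was 2.14% in the last bin before 5 kb downstream. Averaged over both sides it was 2.19% at 1 to 2 kb and 2.43% at 4 to 5 kb. For internal exons of other transcripts the cover was 4.16% in the bin that begins 5 kb upstream, 3.61% at the centre and 3.47% in the last downstream bin. Its course was uneven and had no minimum at the centre, with 3.50% in the bin that begins 1100 bp upstream and 3.37% in that from 1500 bp downstream. Averaged over both sides, their cover was 3.53% at 1 to 2 kb and 3.798% at 4 to 5 kb. For first exons of other transcripts the cover was 4.53% at the centre and higher at 1 to 2 kb (5.00%) than at 4 to 5 kb (4.25%).

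**Figure D3:**
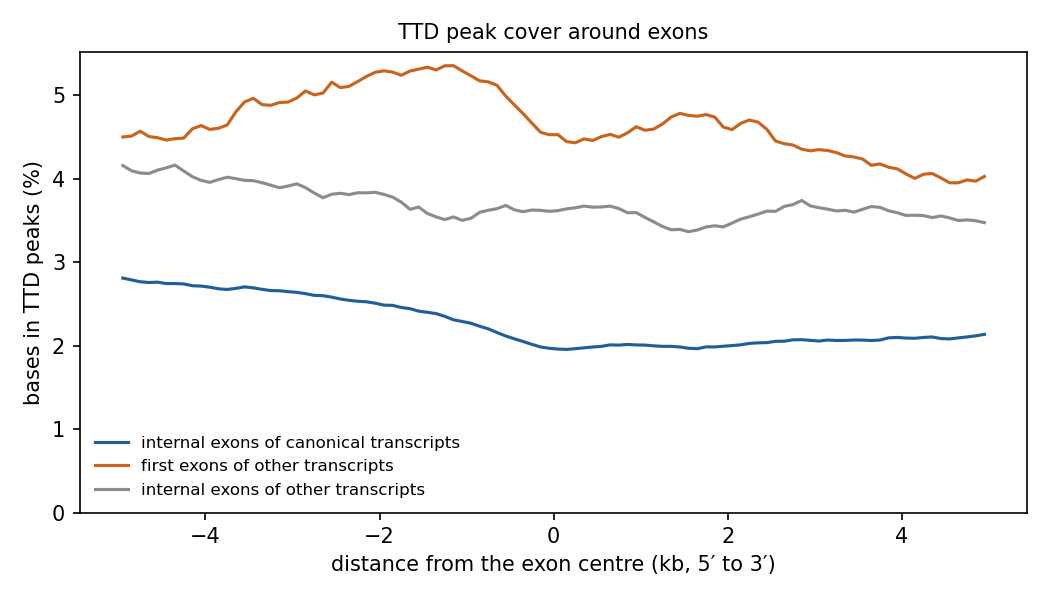
Percent of bases in TTD peaks by distance from the exon centre in kb, 5′ to 3′ on the strand of the gene, in 100 bp bins. The line for internal exons of canonical transcripts (blue) is lowest and falls to 1.96% at the centre, internal exons of other transcripts (grey) lie near 3.61%, and first exons of other transcripts (orange) lie at 4.53%.

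In base composition, exon peaks were close to intronic peaks. Pooled GC content was 42.3% in exon peaks and 42.1% in intronic peaks, and 40.9% in the genome. The ratio of observed to expected CpG was 0.210, 0.201 and 0.240, so that the peaks were poor in CpG. Within exon peaks, the exonic part had 45.3% GC and a CpG ratio of 0.262, and the rest 41.7% and 0.198. In the 2804 exon peaks with at least 50 bases of each part, the exonic part had the higher GC content in 2076 (74.0%), with a median difference of 4.10 percentage points. Canonical internal exons of extreme composition were overlapped less often than those in the middle. The share was 1.89% (1.76 to 2.03) for the quartile lowest in GC, 2.48% (2.33 to 2.64) and 2.497% (2.35 to 2.66) for the middle quartiles, and 1.44% (1.33 to 1.57) for the quartile highest in GC. The latter exons also lay nearer to a TSS, with a median distance of 15423 bp against 37207 bp in the lowest quartile, and these properties were not separated.

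Exon peaks lay over exons of 2342 of 18436 genes with an exonic base more than 2500 bp from every protein-coding TSS, and this background of 12.7% (12.2 to 13.2) stands beside all gene counts below. A single exon peak was found in 1753 of these genes (74.9%), 2 in 392 and at least 3 in 197, of which 27 had at least 5. Exons of more than 1 gene were met by 78 peaks. Gene length went with these counts. In the shortest quartile of genes, up to 12756 bp, 1.91% (1.55 to 2.35) had an exon peak, then 7.55%, 14.5% and, from 78895 bp on, 26.9% (25.6 to 28.2), whereas the exonic cover itself ranged only from 2.18% to 2.76% over the quartiles.

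The genes with the most exon peaks were MIPOL1 with 12, TTC6 and VPS13D with 10 each, and FGGY and FRY with 9 each, while 8 genes had 6 each. Of these 8, ABCC11, ANTXR1, MYBPC1, PKD1L1 and STARD13 are described below because they held more exonic bases in exon peaks (1598 to 7422) than the others, such as THADA (1568) and ZNF385B (1164). MIPOL1 and TTC6 are neighbours on chromosome 14, on either side of FOXA1, a pioneer transcription factor of liver. Over the 381232 bp of MIPOL1 the exon peaks ranged in width from 1000 to 19020 bp and held 17258 exonic bases, 60.3% of all exonic bases of the gene, and they enclosed the last 3 canonical exons (11, 12 and 13). TTC6 had peaks of 690 to 13820 bp, which met 12 of its 33 canonical exons. FOXA1 itself had 1 exon peak of 1620 bp, 3099 bp from its TSS, with 1344 coding bases of its exon 2, so that exon peaks were found in 3 adjoining genes.

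VPS13D, a lipid transfer protein needed for mitochondrial health, had its 10 exon peaks of 440 to 5410 bp in the interior of the gene, and 7 of them met canonical exons, all between exon 48 and exon 64 of 70. FRY, a large protein that binds microtubules, showed a similar series. Of its 9 exon peaks, 4 followed each other over exons 48 to 55 of 61, with widths of 5590, 4020, 6360 and 4400 bp, and each enclosed 2 canonical exons. FGGY, a carbohydrate kinase, had exon peaks of 1010 to 11020 bp that lay between 12.5 and 402 kb from the TSS of this gene of 514010 bp, and 5 of its 16 canonical exons were met. Of 5960 genes with a TTD peak and at least 1 kb of exon and of intron, most had the lower cover in exons. Exons were covered less than introns in 4623 of them (77.6%) and more in 1332 (22.3%). The genes named here were picked by their exon peaks, which favours exonic cover. Among the 5 genes with more than 6 exon peaks and the 5 described from those with 6, exons and introns were covered in either order. The exons were covered more than the introns in MIPOL1 (62.6% and 40.03%), PKD1L1, a polycystin family member (25.01% and 15.0%), and MYBPC1, a myosin-binding protein of slow muscle (43.8% and 40.9%). They were covered less in FGGY (12.9% and 27.0%), TTC6 (25.8% and 36.4%), FRY (18.8% and 22.1%) and VPS13D (11.9% and 14.6%). The values were within 2 percentage points of each other in ABCC11, an export pump of the ABC family (37.7% and 38.2%), in ANTXR1, a receptor of anthrax toxin (42.6% and 44.3%), and in STARD13 (24.96% and 25.1%).

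Single peaks also enclosed runs of exons. The highest number was found in ITGA10, the α subunit of a collagen-binding integrin, where 1 peak of 8870 bp (chr1:145891241-145900110) enclosed 14 canonical exons and held 3193 exonic bases. In COL5A2, which encodes a chain of fibrillar collagen V, a peak of 10570 bp (chr2:189043951-189054520) enclosed 12 exons, numbers 36 to 47, yet only 972 of its bases were exonic, all of them coding. TTLL4, a tubulin glutamylase, and CPNE6, a copine that binds phospholipids, had 11 whole exons each in peaks of 8710 and 3230 bp. SLC38A4, an amino acid transporter of liver, had 9 in a peak of 12150 bp, and RBM23, the myosin gene MYH4 and COL7A1, the collagen of anchoring fibrils, had 8 each. NEB and NPR2, a natriuretic peptide receptor, followed with 7 each. These 10 peaks were from 1560 to 12150 bp wide, and the 8 exons in the narrowest, that of COL7A1, held 417 bases together.

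NEB, the giant nebulin of muscle thin filaments, had 5 exon peaks. They measured 7800, 1870, 3690, 3520 and 3550 bp from 5′ to 3′ and enclosed exons 57 to 63, 66 to 67, 82 to 84, 90 to 92 and 98 to 100 of 182. The exon triplets 82 to 84, 90 to 92 and 98 to 100 held 417 exonic bases each. The 3 peaks over these triplets started 10430 and 10590 bp apart, and they lie in a part of NEB that is known to be repeated in near-identical copies. Of all stretches of 100 bases in them, 63.8%, 98.5% and 96.0% (5′ to 3′) occurred letter for letter in another NEB exon peak, against 0 of 7701 and 0 of 1771 in the other two peaks. A read that matches more than 1 copy cannot be assigned to 1 of them by its own letters. How the reads mapped here is not known from the list, and the 3 peaks are not taken as separate observations.

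**Figure D4:**
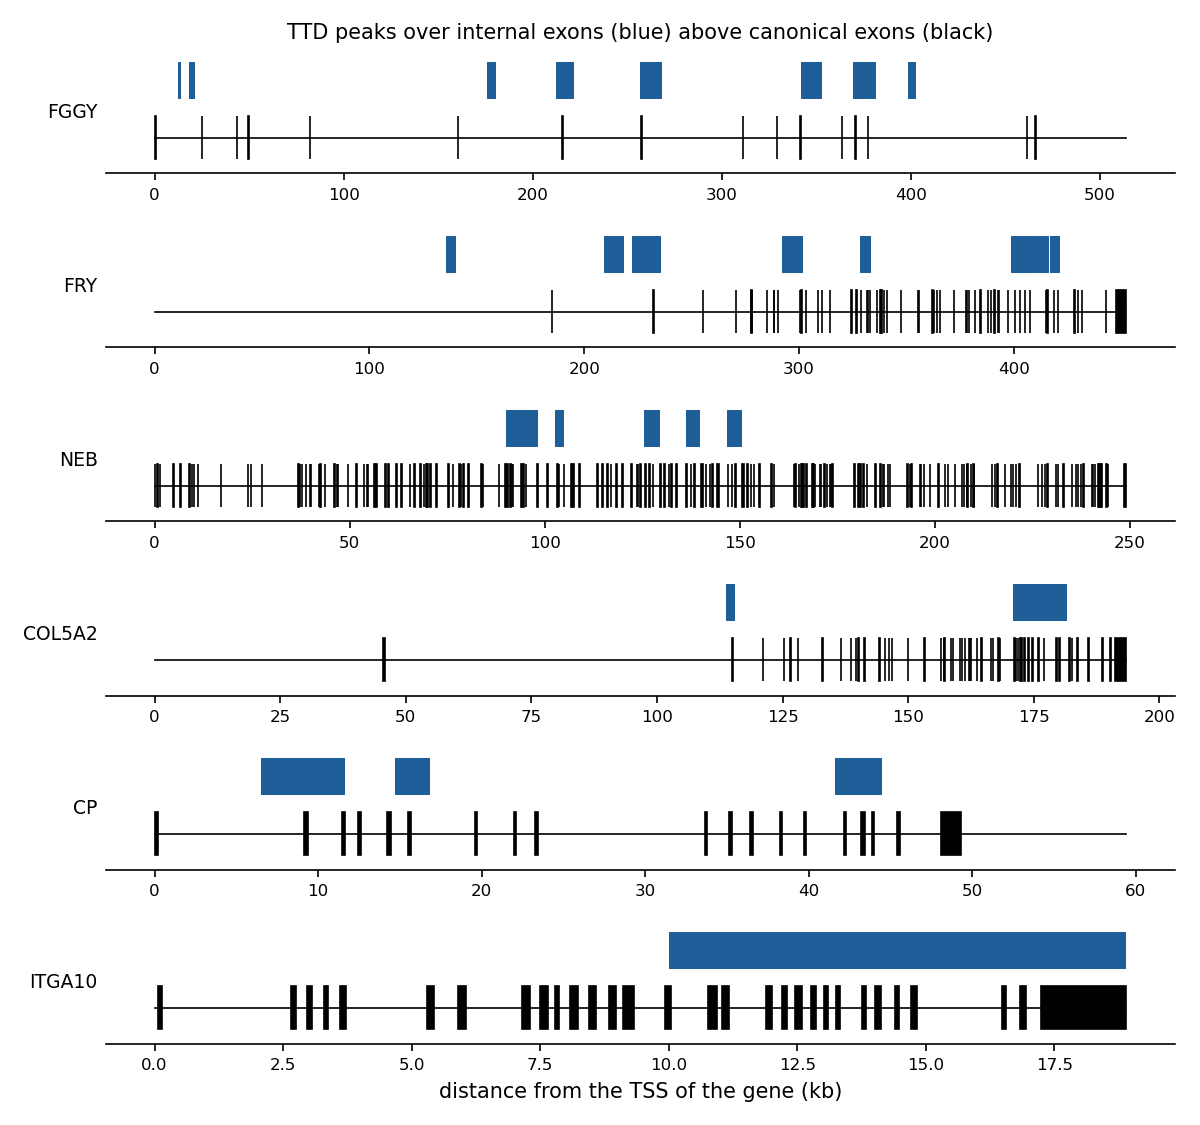
Exon peaks (blue boxes) above the canonical exons (black) of 6 genes, by distance in kb from the TSS of the gene record, each gene 5′ to 3′ on its own scale. Peaks less than about 1 kb apart run together in the longest genes, FGGY and FRY, and the ITGA10 peak encloses 14 exons at the 3′ end of the gene.

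The widest exon peaks held little exon, with 1 exception. That of TFPI, the inhibitor of the tissue factor pathway of coagulation, measured 35150 bp (chr2:187503481-187538630) and also held the most exonic bases, 6562, of which 121 were coding, and it enclosed 1 canonical exon, exon 2. The peak of CPS1, the entry enzyme of the urea cycle, measured 26600 bp with 261 exonic bases and enclosed exon 1 of the canonical transcript, which starts inside the gene record, 52819 bp or more from its 5′ end. In HSD17B2, which oxidises sex steroids, the widest peak measured 26100 bp with 274 exonic bases and the introns of the gene were covered to 70.6%. SPTLC3, a subunit of serine palmitoyltransferase, had a peak of 25170 bp with 219, and UTRN, the dystrophin homologue utrophin, one of 23790 bp with 432 exonic bases. Among these 5 peaks, exonic shares ranged from 0.870% in SPTLC3 to 18.7% in TFPI.

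Of the 10 peaks with the most exonic bases, 5 met the last exon of the canonical transcript, in MIPOL1, SLC26A2, HRNR, MFSD4B and DCP2. After TFPI came MIPOL1 with 6310 and 6190 exonic bases in peaks of 19020 and 6270 bp, and the nuclear factor gene NFIA with a peak of 5790 bp that was wholly exonic and without a coding base. The peaks of MFSD4B (5180 bp) and DCP2 (5030 bp), the mRNA decapping enzyme, were likewise wholly exonic and noncoding. In HRNR, which encodes the epidermal protein hornerin, the peak of 5240 bp was wholly coding and lay in exon 3, a long exon with internal repeats, where 66.2% of all stretches of 100 bases occurred again in the same peak. SLC26A2, a sulfate transporter, had 1518 coding bases among 5265 exonic ones. JAML, an adhesion molecule, and SGCE, a sarcoglycan, held 5250 and 5092 exonic bases, of which 487 and 270 were coding.

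For groups of genes with a shared function, the share with at least 1 exon peak was set beside the 12.7% of all genes. As gene length moved with this share, the median gene length of each list is given with the share of all genes in the length quartile that holds it, and no list was tested. In hepatic metabolism, 33 of 101 genes had an exon peak, 32.7% (24.3 to 42.3), with a median length of 34457 bp, a length class in which 14.5% of all genes had one. The genes with the most exonic bases were FAH, the last enzyme of tyrosine breakdown, with 3400 bases in 1 peak of 3510 bp, CPS1 with 2281 in 2 peaks, and CYP3A5, a drug-metabolising cytochrome P450, with 1542 in 1 peak. Of the plasma proteins, with a median length of 19142 bp in a class where 7.55% of all genes had an exon peak, 14 of 63 (22.2%, 13.7 to 33.9) had one, namely AGT, APOH, C5, C6, C8B, C9, CP, F12, FGG, FN1, HRG, ITIH2, KNG1 and TTR. Those with the most exonic bases were the complement component C6 with 1935 in 4 peaks, CP, the copper-carrying ferroxidase ceruloplasmin, with 1539 in 3 peaks, and KNG1, the precursor of kinins, with 1509 in 1 peak. Plasma protein genes were covered to 10.3% in exons and 12.1% in introns, against 2.53% and 3.59% over all genes, and genes of hepatic metabolism to 8.36% and 8.48%.

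Hepatic transcription factors and nuclear receptors had an exon peak in 17 of 60 genes, 28.3% (18.5 to 40.8), at a median length of 46449 bp and 14.5% of all genes of that class. RORA, an orphan nuclear receptor, held 5378 exonic bases in 3 peaks, ZBTB20, a repressor of AFP, 1743 in 4 peaks, and FOXA1 1371 in 1 peak. Exonic cover was 6.33% and intronic cover 5.64%, but without RORA, which held 5378 of the 13589 exonic bases of the list in exon peaks, the values were 5.10% and 5.82%, the reverse order. Of the growth factor receptors and insulin signaling genes, 15 of 58 (25.9%, 16.3 to 38.4) had one, near the 26.9% of all genes in the quartile of their median length of 90513 bp. The list was led by the exchange factor SOS1 with 2862, FGFR2 with 1627 and the adaptor GAB2 with 1340 exonic bases. In this list exons were covered to 3.43% and introns to 5.65%.

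Matrix and adhesion genes, which are long and rich in exons, had shares of 37.5% (26.0 to 50.6) for collagens and laminins, 21 of 56 genes with a median length of 124894 bp, and of 30% (19.1 to 43.8) for integrins and cadherins, 15 of 50 genes with a median length of 94763 bp. Of all genes in the longest quartile, 26.9% had an exon peak. In COL4A3, a chain of basement membrane collagen, 4 peaks near the 3′ end met 7 canonical exons between exon 44 and the last exon, 52. They held 5792 exonic bases, 47.2% of those of the gene, and 47.9% of exonic but 6.84% of intronic bases away from the TSS lay in peaks. LAMA1 and LAMB4 followed with 1421 and 1369 exonic bases. Among the integrins, ITGA1 held 4916, ITGA10 3193 and ITGA11 3150 exonic bases. Exonic and intronic cover were 3.34% and 2.49% in collagens and laminins and 4.21% and 2.07% in integrins and cadherins, and a few genes carried this order. Without COL4A3 the first pair became 2.28% and 2.41%. Without ITGA1 the second was 3.09% and 1.89%, and without ITGA1, ITGA10 and ITGA11, which held 11259 of 16355 exonic bases, it was 1.44% and 1.83%.

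The ABC transporters had the highest share of the 13 lists, 46.7% (32.9 to 60.9), or 21 of 45 genes with a median length of 75137 bp. This length is near the upper end, 78890 bp, of a quartile where 14.5% of all genes had an exon peak, and the next quartile had 26.9%. ABCA5, ABCA6, ABCA8, ABCA9 and ABCA10, which are among them, adjoin each other on chromosome 17 and are therefore not separate loci (named after their values were seen). Over the whole list, exons were covered to 6.74% and introns to 6.92%. ABCC3, an export pump for organic anions, held 2991 exonic bases in 4 peaks, the most of the list and the reason it is named. In it, 33.8% of exonic and 14.8% of intronic bases lay in peaks. ABCA4, the retinoid flippase of photoreceptors, had 5 peaks that met 14 of its 50 exons, of which 1 peak of 10300 bp enclosed exons 25 to 30. ABCG8, a sterol transporter of liver, held 1600 exonic bases in 1 wholly exonic peak of 1600 bp. Of the solute carriers, 61 of 372 (16.4%, 12.98 to 20.5) had an exon peak at a median length of 40350.5 bp, against 14.5% of all genes of that class, with most exonic bases in SLC26A2 (5265), the sodium-calcium exchanger SLC8A3 (4537) and the copper transporter SLC31A1 (3513).

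The shares of the other lists were near or under the background. Of the synaptic and neuronal adhesion genes, 14 of 82 (17.1%, 10.5 to 26.6) had an exon peak at a median length of 568497 bp, in a quartile where 26.9% of all genes had one. Exonic cover was 0.812% and intronic cover 0.917%. The most exonic bases were held by AUTS2 with 2419 and the neurexin NRXN2 with 1420, followed by the postsynaptic scaffold gene DLGAP1 with 1088. Chromatin and DNA methylation factors had one in 7 of 82 genes (8.54%, 4.20 to 16.6) at a median length of 84168.5 bp in the same quartile, namely ARID1B, ASXL2, CHD7, DNMT3A, EED, KDM4C and SETDB2. DNMT3A, a de novo DNA methyltransferase, had 2 such peaks, of 2060 and 1500 bp, with 168 exonic bases. Numbered zinc finger genes reached 6.35% (4.53 to 8.83), 32 of 504 genes at a median length of 26300.5 bp and 7.55% of all genes of that class, led by ZNF292 with 3380, ZNF451 with 3268 and ZNF662 with 2867 exonic bases. Exon peaks were found in 2 of 75 cytosolic ribosomal protein genes, RPL37A and RPL39L, with 61 and 60 exonic bases (2.67%, 0.734 to 9.21). Their median length was 6421 bp, in a length class where 1.91% of all genes had one. None was found in the clustered protocadherin genes, 0 of 51 with a Wilson interval up to 7.005%. Their median length was 115029 bp, in the quartile where 26.9% of all genes had one. As these genes lie in clusters, they are not separate loci, and the interval, which counts each gene as 1, is too narrow.

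**Figure D5:**
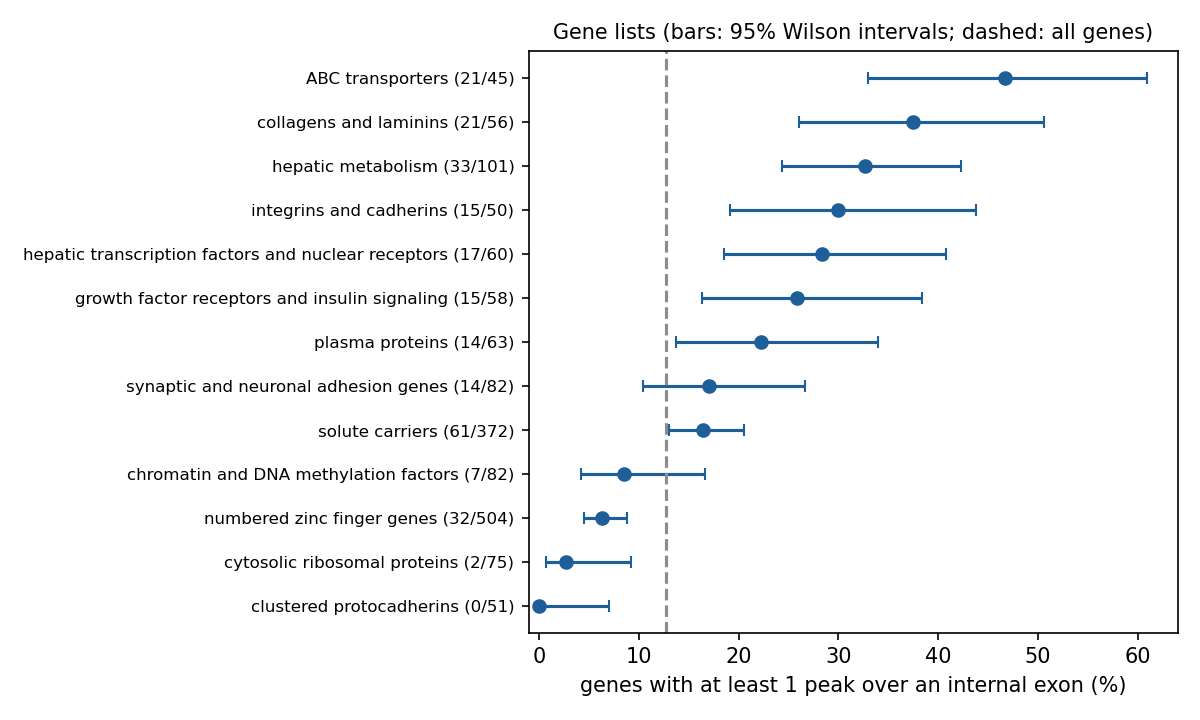
Percent of the genes of each list with at least 1 exon peak (points, with genes counted and genes tested in brackets) and 95% Wilson intervals (bars), beside the 12.7% of all genes (dashed line). ABC transporters are highest at 46.7% and clustered protocadherins lowest at 0.

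Over the chromosomes, exon peaks made up from 2.94% (Y) to 13.1% (17) of all TTD peaks. Their number was also counted per Mb of exonic sequence of any kind more than 2500 bp from every protein-coding TSS. It was highest on chromosome 20 with 71.9 and chromosome 2 with 61.1, where they were 10.4% and 10.5% of all TTD peaks, near the 10.1% of the whole list. Intronic cover was highest on the same chromosomes, with 8.12% and 6.07%. The number per Mb was lowest on X with 6.07 and 19 with 8.54. Chromosomes 2, 14, 16, 17 and 20, taken as gained in HepG2 from general knowledge of its karyotype, held 1072 exon peaks (33.7%) and 9741 of all TTD peaks (30.9%), and the part of copy number was not tested. Exonic bases were covered less than intronic bases on 23 of 24 chromosomes, with ratios from 0.435 on chromosome 22 to 0.917 on chromosome 15. The exception was X, with 0.527% of exonic and 0.445% of intronic bases in peaks and only 20 exon peaks.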

How the data were processed

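Native mononucleosomes of HepG2 cells were pulled down with GST-tagged UHRF1-TTD (CIDOP) or an H3K9me2 antibody and sequenced beside input, with 2 biological replicates each. According to the methods and processing notes, the authors trimmed the reads with Trimmomatic 0.38, checked them with FastQC 0.72, mapped them to hg38 with HISAT2 2.2.1, made RPKM tracks (10 bp bins, blacklist left out) with deepTools 3.3.2, averaged both TTD replicates, called broad peaks with MACS2 2.1.1, and filtered these against the blacklist and by eye. The filtering by eye removed artifacts and also large peaks judged false, so that the widths given here are those left after this step. No input track is named for the calling. The authors deposited 1 list of positions and widths in bp, which is not on a scale of signal. The depth of the libraries is unknown from it, and the H3K9me2 and input signals were not analysed here.

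Groups were taken from the labels. Peaks were classified by interval arithmetic with GENCODE release 44 on hg38. Cover is the percent of bases in peaks, and GC content and CpG ratios were counted from the reference. Intervals given with shares are 95% Wilson intervals. The classification was tested on simulated data, where 2000 of 2000 peaks were classified alike by an independent method. Named were the 10 genes with the most exon peaks, the 10 exon peaks with the most exonic bases and with the most whole canonical exons, the 5 widest, and the 3 genes with the most exonic bases in each of 13 lists, with ties broken by the exonic bases in exon peaks. Beyond these, all genes with an exon peak are named for 2 lists, and 5 adjoining ABC transporter genes were named after their values were seen. The exon peaks and lists were chosen with earlier results of these data known. Alternatives were other TSS distances and TSS sets, coding or canonical exons alone, at least 50 bp of exon or the peak midpoint in an exon, peaks at or above the median width, joined peaks, and the genome without chromosomes taken as gained. Masked repeats were not analysed here, and the sequences of some exons are not reported here. Python 3.11.15, numpy 2.4.6, scipy 1.17.1 and matplotlib 3.10.9 were used.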

Additional observations from a re-analysis of the deposited data

How the results depend on the processing

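No paired analysis was possible because peak calling used the mean of both replicates, and no result comes from a test. Of the 48 values under alternatives, 28 stayed within 1.5 times a count or within the interval of the main value, and 20 moved. For the cover ratio that interval was 0.693 to 0.729 and for the median width 2600 to 2760 bp. These 2 are not Wilson intervals, and they hold no spread between replicates. With the starts of every transcript as TSSs, 1641 exon peaks in 1362 genes remained, with 73.0% coding and an exon to intron ratio of cover of 0.742. With coding exons alone, the median width was 2780 bp, the coding share 100% by construction and the ratio 0.560. With canonical exons alone, the coding share was 90.1% and the ratio 0.658. With the peak midpoint in an exon, 664 peaks in 649 genes remained, with 58.6% coding and a median width of 1910 bp, below the 2100 bp of the intronic peaks, so that the order of the widths turned around. Among peaks at or above the median width, 1916 in 1462 genes were exon peaks, with a median width of 4000 bp, 71.6% coding and a ratio of 0.680. Joining peaks less than 1000 bp apart moved the median width to 2770 bp, and without chromosomes 2, 14, 16, 17 and 20 there were 2106 exon peaks. The cover ratio has no value with at least 50 bp of exon or with the midpoint, which concern peaks and not bases. The ratio stayed below 1 in all 9 settings in which it was computed. The list holds no score, so that a stricter threshold could be set only by width. In lists of genes, an alternative chosen after seeing the data left out the genes with the most exonic bases. The exon to intron ratio fell below 1 without RORA (0.876) or RORA, ZBTB20 and FOXA1 (0.774), without COL4A3 (0.945) or COL4A3, LAMA1 and LAMB4 (0.840), and without ITGA1, ITGA10 and ITGA11 (0.789), while it was 1.63 without ITGA1 alone.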
